A study of Sus scrofa with 6 samples.

Results

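The circadian clock genes of immature pig Sertoli cells were followed across Control and melatonin-treated libraries. The set holds 10 genes chosen by name as core clock factors and their repressors: CLOCK, ARNTL (also called BMAL1), PER1, PER2, PER3, CRY1, CRY2, NR1D1, NR1D2 and DBP. Of the 20731 genes in the deposited table, 9 were matched to these names by their pig Ensembl identifiers, and PER3 was matched to none and is not analysed here. A mean of at least 1 FPKM over all libraries was required for the test, which 6 of the 9 reached (CLOCK, ARNTL, PER1, CRY1, CRY2 and NR1D2). PER2, NR1D1 and DBP lay under it and are described by their values.

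The mammalian clock is a loop of transcription. CLOCK and ARNTL bind DNA as a pair at E-box elements and switch on the PER and CRY genes, whose proteins return to the nucleus and block that pair, while the nuclear receptors NR1D1 and NR1D2 (REV-ERB alpha and beta) repress ARNTL and DBP carries the rhythm to output genes. Melatonin is the night hormone of the pineal gland. It acts on the master clock in the brain, and many cells of the body carry their own copy of the loop.

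RNA was sequenced from 6 libraries of immature porcine Sertoli cells, the cells that nurse the germ cells in the seminiferous tubule. The 3 libraries named MT came from cells given melatonin at 10 nM for 36 h, and the 3 named Control have no agent, solvent or time in their labels. Cell type and genotype fields are the same for both groups, and neither the age of the animals, the number of animals, the clock time of harvest nor any step that sets the cells to a common phase is given. Whether replicates were separate cultures or animals is not in the labels, so each p-value reflects the library-to-library spread, and that spread could be technical. In cultured cells measured in bulk, fewer cells expressing a gene and less RNA per cell cannot be told apart.

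The FPKM values were scaled to totals of 19579279 to 21500665 reads per library, as worked out from the spacing of low FPKM values. Nearly all of each total lay in the listed genes, and the number of reads sequenced is not known here. Of 14 Sertoli markers, 11 had a row and 5 of them a mean of at least 1 FPKM: CLU, WT1, AMH, INHBB and SOX9. INHA, DHH, KITLG, NR5A1, DMRT1 and TF stayed under 0.480 FPKM in every library, so the labelled cell type rests on part of its marker list. All 8 markers of peritubular myoid cells had a row, and 4 had a mean of at least 1 FPKM. TAGLN stood at 153.7 to 256.9 FPKM, MYLK at 14.0 to 17.1, SMTN at 8.25 to 14.5 and DES at 5.55 to 9.43. CNN1 reached at most 1.07 FPKM, ACTG2 0.601, ACTA2 0.208 and MYH11 0.0406. MYLK was at 14.0 to 15.1 in Control and 15.8 to 17.1 in MT, with no overlap. The summed myoid list spanned 185.6 to 295.0 FPKM in Control and 187.5 to 220.1 in MT. Of 8 germ cell markers, 2 had a row, with DDX4 reaching at most 0.0347 FPKM and SYCP3 at most 0.446. Of 6 Leydig cell markers, 3 had a row, with STAR at 2.12 to 2.68 and CYP11A1 at 1.46 to 2.47 FPKM and CYP17A1 not past 0.0274, and their sum was 3.85 to 4.35 in Control and 3.74 to 4.87 in MT. Of 6 macrophage markers, 5 had a row, with a sum of 9.80 to 12.4 FPKM in Control and 11.9 to 13.4 in MT. CD14 stood at 6.21 to 8.30 FPKM, CD68 at 3.18 to 4.14 in Control and 4.50 to 5.30 in MT with no overlap, while CSF1R did not pass 0.0522 and CD163 did not pass 0.00639. Of all tested genes 11.2% had no overlap, and 6.24% had all MT values above Control, as MYLK and CD68 did. The part of such cells in the results was not tested.

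Control 3 stood apart, closer to each MT library than to the other Control libraries. Over the 10950 tested genes its log2 levels correlated with those of Control 1 and Control 2 at r = 0.938 and 0.939, whereas Control 1 and Control 2 correlated at 0.993. With MT 1, MT 2 and MT 3 the values for Control 3 were 0.975, 0.952 and 0.971. Among the MT libraries, MT 2 correlated most closely with Control 1 and Control 2 (0.987 and 0.986). Genes are not independent replicates, so these coefficients only describe the libraries. The files hold no independent check of the label of Control 3. Every Control mean and every difference over 6 libraries takes that label as given, and the differences are therefore also given without this library.

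The clock genes covered a wide span of levels. FPKM is scaled to gene length, so the genes can be ordered. Over the 6 libraries PER1 had the highest mean at 8.32 FPKM, followed by CLOCK at 6.56, CRY2 at 5.75, NR1D2 at 5.07, CRY1 at 3.86, ARNTL at 1.63, NR1D1 at 0.968, PER2 at 0.535 and DBP at 0.185. The upper part of this order was not fixed: PER1 exceeded CLOCK in 4 of 6 libraries, CLOCK exceeded CRY2 in 4, CRY2 exceeded NR1D2 in 3 and NR1D2 exceeded CRY1 in 5. Below that, CRY1 lay above ARNTL in all 6 libraries, ARNTL above NR1D1 in 5, NR1D1 above PER2 in 6 and PER2 above DBP in 6. PER1 stood at percentile 50.9 of the levels of all tested genes and ARNTL at percentile 7.32.

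**Figure D1:**
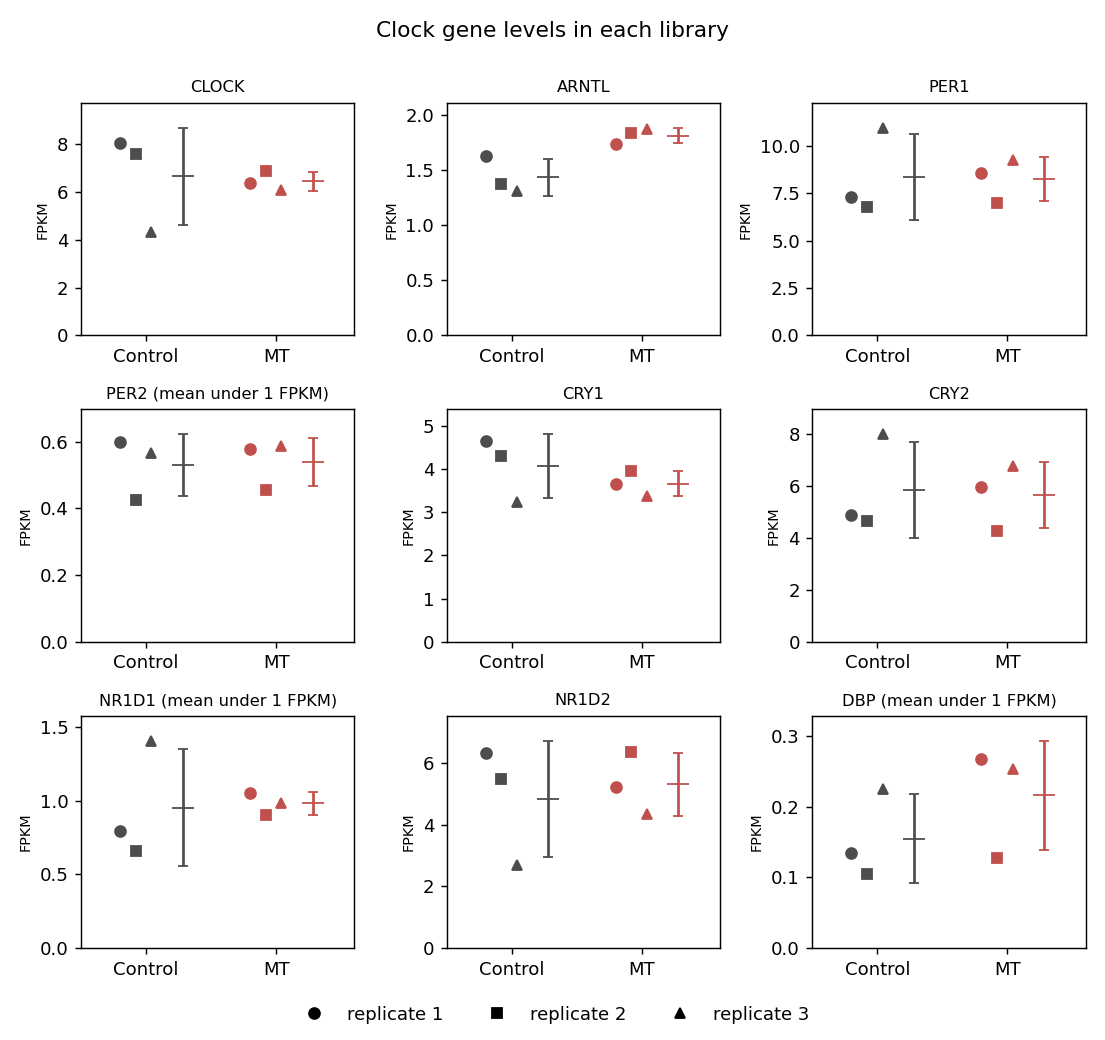
FPKM (vertical axis, from 0) of the 9 clock genes in each library, Control in grey and MT in red, with the marker shape giving the replicate and the bar the mean ± SD of 3 libraries. ARNTL alone has its 3 MT values (1.74 to 1.87) above its 3 Control values (1.31 to 1.63), and Control 3 is the lowest library in CLOCK, ARNTL, CRY1 and NR1D2 and the highest in PER1, CRY2 and NR1D1.

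ARNTL (ENSSSCG00000013397, chromosome 2, 45895637 to 46025174), the partner whose transcript is the rhythmic one in most mammalian tissues, was at 1.63, 1.37 and 1.31 FPKM in Control 1 to 3 and at 1.74, 1.84 and 1.87 in MT 1 to 3. The groups did not overlap, with every MT library above every Control library. The means were 1.44 ± 0.17 and 1.82 ± 0.069 FPKM (SD, n = 3), 1.26 times as high in MT. The log2 difference on the log2(FPKM + 1) scale was 0.21 (SE 0.11, 95% interval -0.049 to 0.47), which did not pass limma (unadjusted p 0.096, adjusted p 0.9998). An exact two-sided permutation test of the FPKM means gave p = 0.10, the smallest that 3 libraries against 3 allow. The values rested on 139 to 196 reads per library, and the counting intervals of Control 1 (1.39 to 1.90 FPKM) and MT 1 (1.5 to 2.01) overlapped. These intervals (exact Poisson, 95%) cover counting error only.

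Non-overlap was found in 1 of the 6 tested clock genes, against 11.2% of all tested genes, and MT values above Control values in 6.24%. With 6 genes, a count of 1 is close to that background. Leaving out each library in turn kept the ARNTL difference between 0.17 and 0.27.

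CLOCK (ENSSSCG00000008909, chromosome 8, 54793323 to 54910192), the other partner and a histone acetyltransferase as well, was at 8.06, 7.58 and 4.33 FPKM in Control 1 to 3 and at 6.40, 6.89 and 6.10 in MT 1 to 3. The 3 MT values fell inside the gap between Control 3 and the other Control libraries. The log2 difference was 0.00054 (SE 0.21, interval -0.50 to 0.51, limma adjusted p 0.9998), and without Control 3 it was -0.24 (SE 0.082, interval -0.44 to -0.048, limma unadjusted p 0.021, adjusted p 0.086). TMEM165 overlaps the RefSeq span of CLOCK by 3030 bases. Whether their exons overlap was not checked. Where exons overlap, reads cannot be told apart without the strand setting of the counting, which is not given.

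Of the PER genes, which encode the rhythmic inhibitors of the CLOCK and ARNTL pair, PER1 stood far above PER2. PER1 (ENSSSCG00000017983, chromosome 12, 53361863 to 53376723), which also responds quickly to cAMP and glucocorticoid signals, was at 7.34, 6.76 and 10.96 FPKM in Control 1 to 3 and at 8.58, 7.0 and 9.25 in MT 1 to 3. Control 3 was the highest of all, and the groups overlapped throughout. The log2 difference was 0.0075 (SE 0.19, interval -0.45 to 0.47, limma adjusted p 0.9998), and without Control 3 it was 0.20 (interval -0.077 to 0.47, adjusted p 0.25).

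PER2 (ENSSSCG00000016338, chromosome 15, 137793419 to 137837854) was at 0.60, 0.43 and 0.57 FPKM in Control 1 to 3 and at 0.58, 0.46 and 0.59 in MT 1 to 3, from 61 to 89 reads. The lowest value in each group was that of replicate 2, and an exact two-sided permutation test of the means gave p = 0.80. PER1 stood 12.2 to 19.4 times above PER2 in Control and 14.8 to 15.8 times above it in MT. The spread of that ratio between MT libraries (SD 0.044 on the log2 scale) was smaller than between Control libraries (SD 0.33), a difference that was not tested.

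The cryptochromes, which carry most of the repressing activity of the PER and CRY complex, split in their behaviour across libraries. CRY1 (ENSSSCG00000000164, chromosome 5, 13275265 to 13429566) was at 4.65, 4.31 and 3.23 FPKM in Control 1 to 3 and at 3.65, 3.96 and 3.38 in MT 1 to 3. All MT values were below Control 1 and Control 2 but above Control 3. The log2 difference was -0.11 (SE 0.14, interval -0.45 to 0.23, limma adjusted p 0.9998). Without Control 3 it was -0.23 (SE 0.091, interval -0.45 to -0.019, limma unadjusted p 0.037, adjusted p 0.12). The RefSeq span of CRY1 also holds MTERF2 and TMEM263, so its reads may be shared.

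CRY2 (ENSSSCG00000013270, chromosome 2, 16587101 to 16620380) was at 4.87, 4.66 and 7.98 FPKM in Control 1 to 3 and at 5.94, 4.26 and 6.76 in MT 1 to 3. Here Control 3 was the highest library and MT 2 the lowest. The log2 difference was -0.024 (SE 0.23, interval -0.57 to 0.52, limma adjusted p 0.9998), and it turned to 0.19 without Control 3 (interval -0.19 to 0.57, adjusted p 0.41). CRY1 and CRY2 were near parity in Control 1, Control 2 and MT 2, with CRY1 to CRY2 ratios of 0.955, 0.926 and 0.928. The ratio was 0.615 in MT 1, 0.50 in MT 3 and 0.405 in Control 3, so CRY2 was ahead there.

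The REV-ERB receptors also parted. NR1D2 (ENSSSCG00000027017, chromosome 13, 10756954 to 10791219) was at 6.31, 5.48 and 2.70 FPKM in Control 1 to 3 and at 5.21, 6.37 and 4.35 in MT 1 to 3. Its range within Control was 2.34-fold, wider than its range within MT of 1.47-fold, and Control 3 was the lowest library. The log2 difference was 0.16 (SE 0.27, interval -0.48 to 0.81, limma adjusted p 0.9998) and -0.14 without Control 3 (interval -0.47 to 0.20, adjusted p 0.50).

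NR1D1 (ENSSSCG00000036933, chromosome 12, 22263549 to 22274131) was at 0.79, 0.66 and 1.41 FPKM in Control 1 to 3 and at 1.06, 0.91 and 0.99 in MT 1 to 3, from 35 to 78 reads. The 3 MT libraries lay above Control 1 and Control 2 and below Control 3, and the exact two-sided permutation p of the means was 1. The RefSeq span of NR1D1 overlaps that of THRA, a thyroid hormone receptor gene, by 3626 bases, and whether exons overlap was not checked. Reads of overlapping exons cannot be assigned without the strand setting. NR1D1 made up 0.121 to 0.126 of the NR1D2 level in Control 1 and Control 2, 0.142 to 0.227 in MT and 0.521 in Control 3.

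DBP (ENSSSCG00000003148, chromosome 6, 53986955 to 53993044), an activator that binds D-box elements of clock output genes, was scarcely detected. It was at 0.13, 0.10 and 0.22 FPKM in Control 1 to 3 and at 0.27, 0.13 and 0.25 in MT 1 to 3, which are 5, 4, 9, 11, 5 and 10 reads. The counting interval reached from 0.029 to 0.27 FPKM in Control 2 and from 0.13 to 0.48 in MT 1, and the exact two-sided permutation p of the means was 0.30.

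Over the set, 0 of the 6 tested clock genes passed limma at an adjusted p of 0.05, as did 0% of all 10950 tested genes, and 0 had an unadjusted p under 0.05, where 4.72% of all genes did. With limma voom, fitted to the read numbers worked out from FPKM, 0 of the 6 passed and 0 were under an unadjusted p of 0.05. The median log2 difference of the 6 was 0.0040, against 0.021 over all tested genes. Without Control 3 the test again passed 0 of the 6, where 10.9% of all genes passed, and 2 (CLOCK and CRY1) had an unadjusted p under 0.05, where 36.2% did. The intervals over 6 libraries still allowed shifts of up to 0.47 for ARNTL and 0.81 for NR1D2 on the log2(FPKM + 1) scale. That scale understates changes of low genes such as ARNTL. The ARNTL difference was 0.21 there, 0.32 with a pseudocount of 0.1 and 0.34 by limma voom, and it passed in none of these fits. When limma gave the libraries weights by their spread, with a weight of 0.052 for Control 3, 5 of the 6 passed, where 57.6% of all genes did.

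**Figure D2:**
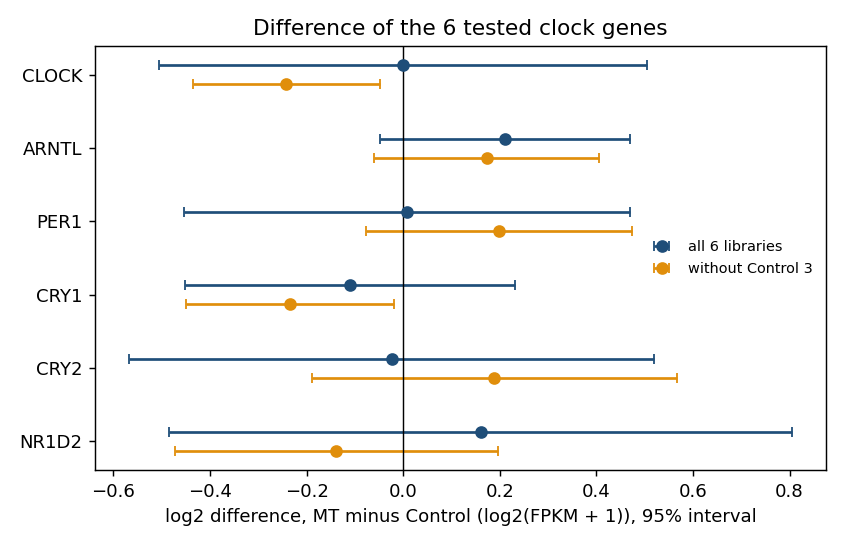
Log2 difference of MT minus Control (horizontal axis, log2(FPKM + 1) scale) for the 6 tested clock genes, with points for the estimate and bars for its 95% interval, in blue over all 6 libraries and in orange without Control 3. All blue intervals include 0, and without Control 3 those of CLOCK (-0.44 to -0.048) and CRY1 (-0.45 to -0.019) do not, before any adjustment for the number of genes.

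Apart from ARNTL, the tested clock genes differed more between Control 3 and the other Control libraries than between the groups. Over all 6 tested clock genes, with ARNTL, the median absolute difference was 0.61 for Control 3 and 0.067 between the groups. Over all tested genes these values were 0.42 and 0.098, so the pattern is not particular to clock genes. Control 3 is part of the Control mean, so these measures are not independent. Relative to the mean of Control 1 and Control 2 on the log2(FPKM + 1) scale, Control 3 differed by -0.90 in NR1D2, -0.73 in CLOCK and -0.37 in CRY1. It was higher by 0.64 in CRY2 and by 0.57 in PER1. Of the 6, ARNTL differed least, at -0.11. The MT mean lay on the same side as Control 3 for 5 of the 6 genes, at -0.24 in CLOCK, -0.23 in CRY1, -0.14 in NR1D2, 0.19 in CRY2 and 0.20 in PER1. ARNTL was the exception, with MT at 0.17. Over all tested genes the sides were the same for 80.3%, so the count among the clock genes was close to that background. Control 3 was the lowest of the 6 libraries in 4 of the tested clock genes and the highest in 2, as it was in 41.8% and 32.4% of all tested genes.

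**Figure D3:**
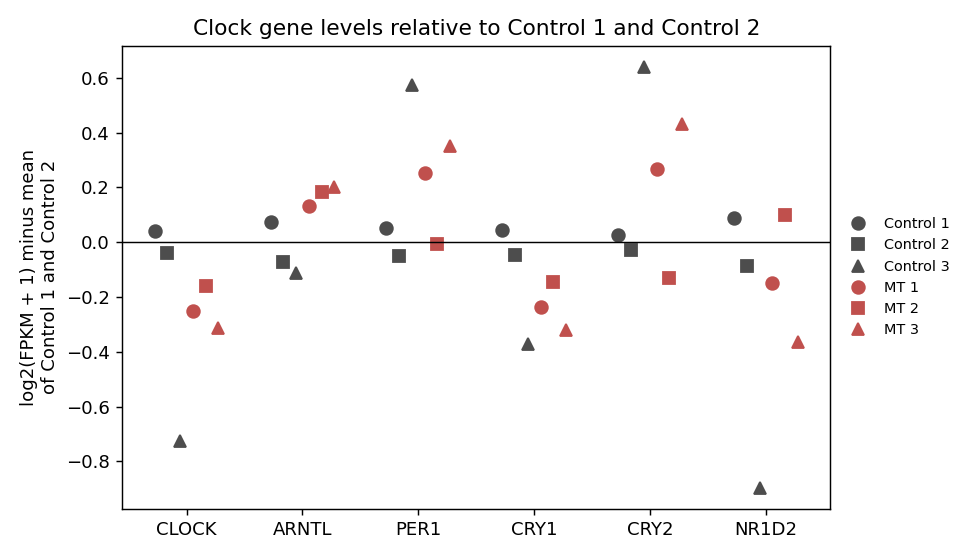
Level of each tested clock gene in each library (vertical axis, log2(FPKM + 1) minus the mean of Control 1 and Control 2), Control in grey and MT in red, with the marker shape giving the replicate. Control 3 lies lowest in CLOCK, CRY1 and NR1D2 and highest in PER1 and CRY2, with MT 1 and MT 3 between it and the other Control libraries. In ARNTL the 3 MT libraries lie above all Control libraries.

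The same split ran through the pairs of genes. Over the 6 libraries PER1 and CRY2 varied together (Pearson r = 0.98), as did CLOCK and NR1D2 (0.94) and CLOCK and CRY1 (0.90), and every pair across these blocks was negative, from -0.93 for CRY2 and NR1D2 to -0.84 for CRY1 and CRY2. Without Control 3 the pairs across the blocks stayed between -0.90 and -0.72. ARNTL had coefficients of -0.26 to 0.51 with the other 5 genes over 6 libraries. Without Control 3 they were -0.70 with CLOCK, -0.67 with CRY1, -0.23 with NR1D2, 0.64 with PER1 and 0.43 with CRY2, with a change of sign for all but CRY1. Such coefficients are common in these libraries: 54.2% of all tested genes had an absolute r of at least 0.8 with CLOCK and 50.9% with PER1, but 8.44% with ARNTL. The genes share libraries, so the coefficients are a description over 6 points.

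Control 3 also differed along gene length. Its median deviation from Control 1 and Control 2 was 0.17 in the fifth of tested genes with the shortest exon length and -0.24 in the fifth with the longest. Over all tested genes the deviation and the log2 length correlated weakly (Pearson r = -0.088, Spearman -0.20). The tested clock genes had recovered exon lengths of 10695 bases (CLOCK), 5584 (PER1), 5232 (CRY2), 5211 (NR1D2), 5054 (ARNTL) and 3811 (CRY1). Their deviations, in that order, were -0.73, 0.57, 0.64, -0.90, -0.11 and -0.37. The part of length or RNA quality in the deviation of Control 3 was not tested.

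Ratios within a library do not depend on its scaling. The level of CRY1 relative to ARNTL was 2.86, 3.14 and 2.46 in Control 1 to 3 and 2.10, 2.16 and 1.81 in MT 1 to 3, so the groups did not overlap. On the log2 scale the mean ratio was 1.49 ± 0.18 in Control and 1.01 ± 0.14 in MT (SD, n = 3), a difference of -0.48, for which no test was made. ARNTL itself had no overlap between the groups, so this ratio partly restates that difference. Of the ratios worked out it alone had no overlap, and it was not among those planned. The share of such ratios over all pairs of genes was not worked out. PER1 relative to ARNTL was 4.51, 4.92 and 8.35 in Control and 4.93, 3.82 and 4.94 in MT, and overlapped. NR1D1 relative to ARNTL, a repressor over its target, was 0.487, 0.481 and 1.07 in Control and 0.607, 0.493 and 0.527 in MT, and overlapped too. The same was true of CLOCK, CRY2, PER2, NR1D2 and DBP relative to ARNTL.

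The genes most like ARNTL and CRY1, the tested clock genes with the smallest p, were sought among 9482 tested genes with a symbol by the Pearson correlation of log2 levels over 6 libraries. Those closest to ARNTL were VPS41 (0.99), GSPT2 (0.989), FBXO25 (0.985), RBM5 (0.985) and ASXL3 (0.985). VPS41, a part of the complex that tethers vesicles to lysosomes, was at 16.3, 15.2 and 14.7 FPKM in the Control libraries and at 17.0, 17.0 and 17.6 in the MT libraries. Those closest to CRY1 were RACGAP1, BAG4, FAU, PIGA and TP53RK, all at 0.99 or above. With 6 libraries, 44 genes exceeded 0.95 for ARNTL and 240 for CRY1.

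Around the core loop, 64 further genes in 5 lists were looked up, and 46 were tested. In limma 0 of the 46 passed an adjusted p of 0.05 (smallest 0.82), and 1 of 46 (2.17%) had an unadjusted p under 0.05, where 4.72% of all tested genes did. By limma voom 0 passed and 1 had an unadjusted p under 0.05. The median difference of the 46 was -0.0034, with 23 higher and 23 lower in MT. The MT values lay entirely above the Control values in 4 of the 46 and entirely below in 1, where 11.2% of all tested genes had no overlap in either direction. Without Control 3, 5 of 46 passed, 1 upward (4.28% of all genes did) and 4 downward (6.62% did).

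Among the other transcription factors of the clock, 7 of 11 were tested, with a median of 0.064. BHLHE40 (DEC1), which represses E-box transcription, was the most abundant, at 79.7, 88.0 and 82.8 FPKM in Control 1 to 3 and at 74.2, 73.9 and 69.1 in MT 1 to 3. Its MT values all lay below its Control values (log2 difference -0.20, SE 0.097, limma unadjusted p 0.075), and the difference was -0.21 without Control 3 (limma adjusted p 0.094). The RefSeq span of BHLHE40 overlaps that of a long noncoding RNA gene by 2718 bases, so its reads may be shared. MT values all below Control values were found in 4.99% of tested genes. BHLHE41 (DEC2), its relative, was at 6.91 ± 1.68 FPKM in the Control group and 5.76 ± 1.33 in the MT group (SD, n = 3), and overlapped.

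ARNTL2, a paralog of ARNTL that can also pair with CLOCK, was at 13.1, 13.4 and 5.77 FPKM in Control 1 to 3 and at 9.91, 12.1 and 8.43 in MT 1 to 3. It was thus above ARNTL in every library and lowest in Control 3, and its difference was -0.014 (SE 0.31) over 6 libraries and -0.37 without Control 3 (limma adjusted p 0.096). NPAS2, the paralog of CLOCK, was at 2.75, 2.86 and 4.03 FPKM in the Control libraries and at 3.24, 3.25 and 3.61 in the MT libraries, highest in Control 3. NFIL3, the repressor at D-box elements, was at 26.3 ± 4.35 FPKM in the Control group and 28.1 ± 4.67 in the MT group, far above DBP.

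TEF, a relative of DBP, was at 2.63 ± 0.27 FPKM in the Control group and 2.94 ± 0.23 in the MT group, and HLF, the remaining relative, did not pass 0.0164 FPKM. RORA, a nuclear receptor that activates ARNTL where REV-ERB represses it, lay under the filter at 0.43 to 0.65 FPKM in Control and 0.56 to 0.95 in MT. CIART, a further repressor, stood at 0.68 to 0.93 in Control and 0.73 to 1.07 in MT. The RefSeq span of CIART overlaps that of C4H1orf54 by 3222 bases, so its reads may be shared.

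The kinases, ligases and cofactors that set the lifetime and activity of clock proteins had 19 of 22 members tested and a median of -0.024, and 0 of the 19 had groups without overlap, where 11.2% of all tested genes did. The 4 with the smallest p were WDR5 (log2 difference -0.13), BTRC (0.17), CSNK1E (-0.14) and SIRT1 (-0.17), with unadjusted p of 0.28 to 0.45 in limma. Without Control 3, NAMPT, the enzyme of NAD supply, fell by 0.54 (limma adjusted p 0.028), and PRKAA1, a catalytic subunit of AMPK, fell by 0.47 (adjusted p 0.044), both named after their values were seen. Over all 6 libraries their differences were -0.17 and -0.055, since Control 3 held the lowest level of each, at 2.20 and 3.81 FPKM.

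The acute inputs to the PER genes (cAMP and glucocorticoid signalling) had 11 of 15 members tested and a median of 0.045, with 3 of the 11 entirely above Control in MT, where 6.24% of all tested genes were. SIK1, a kinase known in the mouse to restrain the induction of PER1 by light and cAMP, was at 5.70, 6.83 and 8.04 FPKM in the Control libraries and at 8.41, 8.46 and 9.11 in the MT libraries (log2 difference 0.31, SE 0.14, limma unadjusted p 0.061). It rose without Control 3 by the test (0.41, adjusted p 0.042). CRTC3, a coactivator of CREB, was at 8.10 ± 0.91 and 9.47 ± 0.27 FPKM, and DUSP1, a phosphatase of MAP kinases, at 98.1 ± 4.33 and 109.3 ± 2.16 (SD, n = 3).

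CREB1 itself was at 4.17, 4.22 and 2.77 FPKM in the Control libraries and 2.55, 3.05 and 2.62 in the MT libraries (log2 difference -0.32, SE 0.16, limma unadjusted p 0.086). It fell without Control 3 by 0.48 (adjusted p 0.035), as did its relative ATF1 by 0.36 (adjusted p 0.042), which was named after its values were seen. Over all 6 libraries ATF1 had a difference of -0.15, and Control 3 held its lowest level, 7.46 FPKM.

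Of the clock outputs, 8 of 10 were tested, with a median of -0.062. PPARA, a lipid-sensing nuclear receptor, was at 2.46, 2.10 and 1.69 FPKM in the Control libraries and at 3.04, 2.95 and 3.55 in the MT libraries, with no overlap. Its log2 difference of 0.44 (SE 0.14) had an unadjusted p of 0.014 and an adjusted p of 0.82 in limma, and 0.35 (adjusted p 0.067) without Control 3. KLF9, a zinc finger transcription factor, was at 1.37 ± 0.32 and 1.74 ± 0.13 FPKM, NOCT at 3.58 ± 0.57 and 2.92 ± 0.83, and POR, the electron donor of cytochrome P450 enzymes, at 25.6 ± 3.63 and 28.4 ± 0.64 (SD, n = 3), all with overlap.

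Of the melatonin list, NQO2, a cytosolic quinone reductase that binds melatonin, was tested, at 12.2 ± 2.69 FPKM in the Control group and 13.1 ± 1.67 in the MT group (SD, n = 3, limma adjusted p 0.9998). The receptor genes MTNR1A and MTNR1B are not analysed here.

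**Figure D4:**
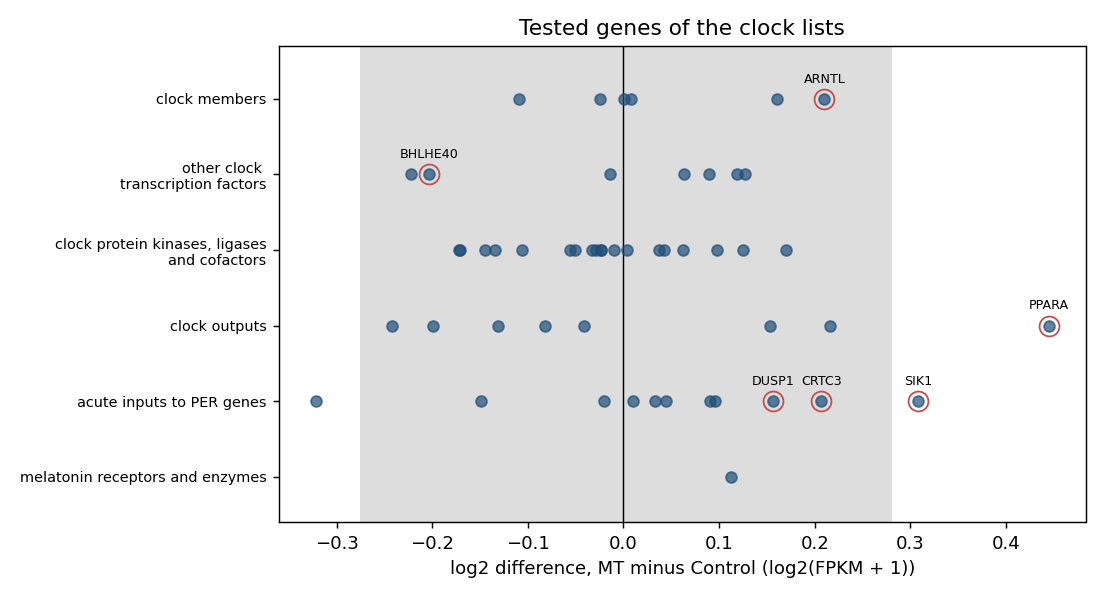
Log2 difference of MT minus Control (horizontal axis, log2(FPKM + 1) scale) of each tested gene in the clock lists, a point per gene, with the range from the 5th to the 95th percentile of all tested genes in grey (-0.27 to 0.28). Red circles mark the genes whose MT and Control values do not overlap: ARNTL, BHLHE40, PPARA, SIK1, CRTC3 and DUSP1.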

How the data were processed

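The authors deposited FPKM per library, fragments scaled to gene length and library size, with no pooling of replicates. HISAT2 and featureCounts (Subread) on Sscrofa11.1 were used, per the submitters' processing notes. No annotation release, strand setting or between-library scaling is given in the sources used here. FPKM ties each value to the library sum, so abundant transcripts can move all others.

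Symbols came from Ensembl identifiers, coordinates from RefSeq on Sscrofa11.1 by symbol. Read numbers, gene lengths and totals were recovered from the steps of low values, and all 10950 tested genes came out within 0.01 of whole reads. Listed genes accounted for 99.6% of each total, and 0 genes were at 0 in every library. Genes whose mean reached 1 FPKM were compared on log2(FPKM + 1), with a pseudocount of 1, by limma 3.58.1 in R 4.3.3 (variance trend, group as the only term, two-sided), with Benjamini-Hochberg adjustment over all tested genes and a threshold of 0.05. This scale understates changes of low genes. The fit was tested on simulated data. Python 3.11.15, numpy 2.4.6, pandas 2.3.3, scipy 1.17.1 and matplotlib 3.10.9 were used.

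Members and lists were chosen with earlier results of these data known. The genes named were all members, 11 further clock and receptor genes, the 4 smallest p of each list, and others said to be chosen after seeing values. A gene named by this rule is not reported here. Alternatives changed the pseudocount, the filter, the scaling or the variance model, weighted the samples, added a replicate block, used limma voom on recovered reads or left out a library. No set test was made. Same-numbered libraries were compared for pairing, and the comparison cannot decide whether the numbers pair them.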

Additional observations from a re-analysis of the deposited data

How the results depend on the processing

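The count of tested clock genes past the threshold stayed at 0 under every alternative but limma sample weights (0.052 for Control 3), with which 57.6% of all tested genes and 5 of the 6 clock genes passed. These weights also passed 32 of the 46 other genes. With each library left out in turn the other genes gave 0 to 5 calls, the 5 without Control 3. Directions of small differences turned. The CLOCK difference was -0.038 with quantile normalisation, -0.015 with median scaling and -0.23 with sample weights, and that of PER1 -0.0076 with median scaling. Sample weights also turned CRY2 to 0.28, NR1D2 to -0.11, NFIL3 to -0.089 and BTRC to -0.013. With a library left out, differences ran from -0.24 to 0.14 for CLOCK, -0.11 to 0.20 for PER1, -0.14 to 0.19 for CRY2, -0.14 to 0.35 for NR1D2, -0.014 to 0.20 for NPAS2, -0.37 to 0.17 for ARNTL2, -0.050 to 0.20 for NFIL3 and -0.27 to 0.024 for CSNK1E. The cause was not tested. Deviations from the group means correlated at -0.44, 0.63 and 0.34 between same-numbered libraries 1 to 3, and at -0.63 to 0.50 between the others. With 3 libraries per group these deviations sum to 0, so the coefficients cannot decide whether the numbers pair the libraries. With the replicate block 0 clock genes and 0 of the other genes passed. DBP, PER2 and NR1D1 rested on 4 to 89 reads per library.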
